A study of Mus musculus with 12 samples.

Results

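The 3 transcripts described here carry a database match to a structured or protein-bound element of an mRNA involved in tissue scarring and growth: connective tissue growth factor (Ctgf, also called Ccn2), vimentin (Vim) and c-Myc (Myc). They are ncRNA_aligned_6524, matched to the CAESAR element of Ctgf, ncRNA_aligned_976, matched to a protein-binding region in the vimentin 3′ untranslated region, and ncRNA_aligned_683, matched to the internal ribosome entry site of c-myc. The Ctgf and Myc transcripts were taken by their number and the vimentin transcript by the word Vimentin in its match, which 1 transcript carried. They are 3 of 42452 transcripts in the tables. All 3 passed the filter on low counts.

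The tables profile putative noncoding RNA in kidneys of C57BL/6J mice, wild type (WT) or with Smad3 knocked out (KO). Each genotype had untreated (normal) kidneys and kidneys from 2 models of injury. In unilateral ureteral obstruction (UUO) the left ureter was tied and the kidney taken at day 5. In anti-GBM glomerulonephritis, mice primed with sheep IgG and Freund's complete adjuvant later received 60 μg/g of sheep immunoglobulin raised against the mouse glomerular basement membrane, and kidneys were taken at day 10. Each of the 6 groups had 2 libraries, and RNA over 150 bases was sequenced after removal of ribosomal RNA. The labels do not give the age of the mice, the sex behind each library, whether animals were pooled, or the design of the Smad3 allele. The normal libraries are labelled untreated and are taken as such here, although the protocol mentions sham-operated controls. The effects of sham surgery and of the immunisation alone are not analysed here. The labels do not say that the 2 libraries of a group came from separate animals, and p-values then measure only the spread between these libraries, which may be technical.

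Transforming growth factor β (TGF-β) is the main growth factor of organ scarring, and Smad3 is the transcription factor that carries its signal to target genes. CTGF is a secreted matricellular protein and a well known TGF-β target that promotes matrix deposition; CAESAR is a folded element in the 3′ untranslated region of human CTGF mRNA that represses its expression. Vimentin is the intermediate filament protein of mesenchymal cells, fibroblasts and leukocytes, and it also appears in injured tubule cells. c-Myc is a transcription factor that drives growth and division; TGF-β signalling through Smad3 represses its gene in epithelial cells, and its internal ribosome entry site lets ribosomes start on the mRNA without its cap.

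The 3 transcripts are far longer than the elements they are matched to. The Ctgf transcript is 2360 bases long, 98.2% of the 2403 bases of the longest annotated Ctgf mRNA, a gene on the + strand at chr10:24315248-24318489 (NCBIM37, the mm9 build). That mRNA has a 5′ untranslated region of 284 bases, a coding sequence of 1047 and a 3′ untranslated region of 1072. The vimentin transcript has 2066 bases against 2193 for the longest Vim mRNA (94.2%), whose gene lies on the + strand at chr2:13495554-13504453. The Myc transcript has 2147 bases against 2338 for the longest Myc mRNA (91.8%), whose gene lies on the + strand at chr15:61816946-61821929. The tables give no coordinates for the transcripts, so whether each is the mRNA itself was not tested. No other row of the tables was matched to these genes by name.

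The vimentin gene is the member of the trio with an entry in the RefSeq promoter table, and its upstream window is shown because vimentin stood highest per length in most libraries. The window runs over the 250 bases before the transcription start, at chr2:13574061-13574310 on the + strand of GRCm38.p6, a later build than that of the tables. The capitals mark a TATAAA motif whose first base lies at -32 and a CCAAT motif at -196, with its reverse complement ATTGG at -94, counted back from the start.
Vim promoter: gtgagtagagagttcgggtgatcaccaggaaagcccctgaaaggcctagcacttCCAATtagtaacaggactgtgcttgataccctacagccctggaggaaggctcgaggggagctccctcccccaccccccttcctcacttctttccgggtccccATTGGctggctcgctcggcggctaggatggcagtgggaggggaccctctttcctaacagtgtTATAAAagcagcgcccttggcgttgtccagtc
Searched on both strands, TATAAA was found in 12.4% of the 32851 promoter windows of this length and CCAAT in 33.8%. The Smad-binding letters CAGAC, present in 42.2% of windows, the AP-1 letters TGANTCA (6.7%) and the GC box GGGCGG (32.7%) were not found in the vimentin window. The motifs found do not overlap each other. A match describes letters only, and a missing match says nothing of the factor.

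Libraries held between 4595261 (WT UUO 1) and 7342937 (WT UUO 2) reads on the listed transcripts. In all 12 libraries transcripts were covered less broadly than randomly placed reads would cover them. The median ratio to random placement was below a limit of 0.5 in 3 libraries, KO UUO 1, KO anti-GBM 1 and WT UUO 1. It was 0.285 to 0.447 in these and 0.636 to 0.911 in the other 9. These 3 are called libraries of low breadth below and the other 9 the broad libraries. A fit on the broad libraries leaves 1 library in WT UUO, KO UUO and KO anti-GBM. The numbers 1 and 2 only name the libraries of a group. Levels are CPM (read counts relative to library size) scaled by the trimmed mean of M values (TMM CPM), and differences are log2 differences from edgeR's quasi-likelihood fit over all 12 libraries, with adjusted p-values taken over 24816 transcripts. Smad3 itself is not analysed here, so the genotype labels were not checked on the targeted gene. In whole kidney RNA, fewer cells of a type and less RNA per cell cannot be told apart.

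Per length, the Ctgf and vimentin transcripts were among the more abundant of the transcripts kept for testing, and the Myc transcript was scarcer. The RPKM (reads relative to transcript length and library total) that the authors deposited ran from 33.6 to 259 for Ctgf, from 50.1 to 498 for vimentin and from 4.24 to 87.0 for Myc. Among the transcripts kept for testing, the RPKM level of Ctgf lay between the percentiles 95.2 and 99.5 in each library, that of vimentin between 96.6 and 99.6, and that of Myc between 79.5 and 97.7. Vimentin had a higher RPKM level than Ctgf in 9 of 12 libraries, with a ratio between 0.608 (KO anti-GBM 1) and 3.68 (KO normal 2). Myc had the lowest RPKM level of the 3 in all 12 libraries; Ctgf exceeded it between 1.72-fold (WT anti-GBM 1) and 14.8-fold (KO anti-GBM 1).

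**Figure D1:**
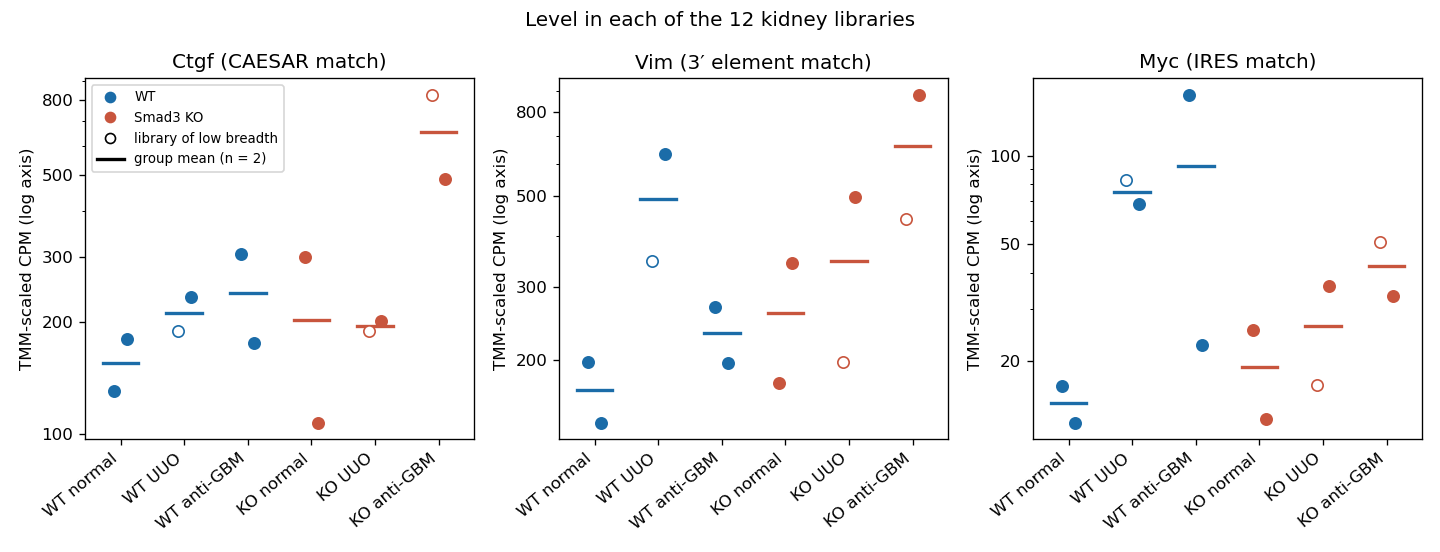
TMM CPM (log axis) of the Ctgf, vimentin and Myc transcripts in the 12 libraries, with blue points for WT, red for Smad3 KO, open points for the 3 libraries of low breadth and lines for group means of 2 libraries. Ctgf is highest in both KO anti-GBM libraries (824.8 and 487.2), and Myc is above every KO library in both WT UUO libraries (82.5 and 68.3).

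The Ctgf transcript was most abundant in nephritic KO kidneys. Its level was 824.8 and 487.2 TMM CPM in KO anti-GBM 1 and 2, above the other 10 libraries, which lay between 107.2 and 305.5. It was 130.8 and 180.2 TMM CPM in WT normal, 189.2 and 235 in WT UUO, and 305.5 and 176.5 in WT anti-GBM. Among KO libraries it was 299.7 and 107.2 TMM CPM in normal kidneys and 189.8 and 201.9 in UUO. The normal KO pair thus spanned nearly all of the range of the WT libraries and of KO UUO. Ordered by group mean, KO anti-GBM (656 ± 239 TMM CPM, SD, n = 2) was followed by WT anti-GBM (241 ± 91.3), WT UUO (212 ± 32.4), KO normal (203 ± 136), KO UUO (196 ± 8.58) and WT normal (156 ± 34.9). Of neighbours in this order, KO anti-GBM and WT anti-GBM did not overlap, nor did KO UUO and WT normal, and the other pairs overlapped.

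The vimentin transcript was high in both libraries of KO anti-GBM and WT UUO, with a wide spread inside most groups. It stood at 197.8 and 140.5 TMM CPM in WT normal, 347.4 and 634.3 in WT UUO, and 268.1 and 196.2 in WT anti-GBM. In KO kidneys it stood at 175.8 and 344.8 TMM CPM in normal, 197.8 and 496.6 in UUO, and 439.3 and 882.7 in anti-GBM. In each of the 3 groups with a library of low breadth, that library had the lower vimentin level of the pair. By group mean the order was KO anti-GBM (661 ± 314 TMM CPM, SD, n = 2), WT UUO (491 ± 203), KO UUO (347 ± 211), KO normal (260 ± 120), WT anti-GBM (232.1 ± 50.8) and WT normal (169 ± 40.5), and every pair of neighbours overlapped.

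The Myc transcript separated most clearly in obstructed WT kidneys. It was at 82.5 and 68.3 TMM CPM in WT UUO against 16.5 and 12.4 in WT normal. In WT anti-GBM its 2 libraries disagreed, at 161.3 and 22.7 TMM CPM. The KO libraries lay between 12.7 and 50.8 TMM CPM, with 25.6 and 12.7 in normal, 16.6 and 36.1 in UUO, and 50.8 and 33.3 in anti-GBM. Both WT UUO libraries were therefore above all 6 KO libraries, while WT anti-GBM 2 was inside the KO range. By group mean the order was WT anti-GBM (92.0 ± 98.0 TMM CPM, SD, n = 2), WT UUO (75.4 ± 10.0), KO anti-GBM (42.0 ± 12.4), KO UUO (26.4 ± 13.8), KO normal (19.2 ± 9.10) and WT normal (14.4 ± 2.90). WT UUO and KO anti-GBM did not overlap in this order, and the other neighbours did.

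None of these differences passed the test over all transcripts. Of 33 tests, 11 comparisons for each transcript, edgeR's quasi-likelihood test called 0 at an adjusted p under 0.05, while 10 (30.3%) had an unadjusted p under 0.05. Over all transcripts and the same 11 comparisons 8.6% did, from 2.22% to 15.8% by comparison. These shares are not like for like. In edgeR's estimate of spread (quasi-likelihood dispersion), Ctgf, vimentin and Myc lay at the low percentiles 5.8, 7.8 and 21.7 of the transcripts tested. The 33 tests share libraries and are not independent. DESeq2 called 3 of the 33 and limma on log2(RPKM + 1) called 2, with a pseudocount of 1. An exact permutation of 2 libraries against 2 cannot give a p below 0.3333, so the fits rest on the spread pooled over all libraries.

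Obstruction in WT kidneys gave positive differences for all 3 transcripts, with no overlap between the groups. Transcripts whose WT UUO libraries were both above WT normal made up 31% of all tested, and 2.42% of all tested passed edgeR in either direction. The Myc transcript differed by 2.39 ± 0.70 on the log2 scale (SE), 5.23-fold, with a 95% interval of 0.93 to 3.85 and an edgeR adjusted p of 0.0791 (unadjusted p = 0.00276). DESeq2 called this difference (adjusted p = 0.00813), in a comparison where it called 5.55% of transcripts, and edgeR without the low-breadth libraries did not (log2 2.17, adjusted p = 0.398). The vimentin transcript differed by 1.54 ± 0.50, 2.90-fold, with an interval of 0.51 to 2.57 and an edgeR adjusted p of 0.115. It was called by DESeq2 (adjusted p = 0.0238) and by edgeR in the 9 broad libraries (log2 1.83, adjusted p = 6.33e-05), a fit with 1 WT UUO library that called 11% of 27730 transcripts. The lone library is there assumed to vary like those of the other groups. Vimentin differed by 0.89 without WT UUO 2, the library with the higher level, and by 1.85 without WT UUO 1. limma called both Myc and vimentin, along with 10.4% of transcripts. Both also passed with DESeq2 size factors, library size alone and no filter in edgeR, which called 2.34%, 4.12% and 2.46% of transcripts, and Myc passed with only the groups compared, which called 4.17%. The Ctgf transcript differed by 0.45 ± 0.47, with an interval of -0.52 to 1.42 and an edgeR adjusted p of 0.684.

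The median transcript was itself shifted in this comparison, by 0.49 on the log2 scale with TMM, 0.76 when scaled by DESeq2 and 1.55 by library size alone. Measured from that median, the Myc difference was 1.90, 1.89 and 1.89 under the 3 scalings and the vimentin difference 1.05, 1.05 and 1.07. The Ctgf difference was -0.04, -0.04 and -0.03, so Ctgf lay at the median of all transcripts in WT UUO. A change of scaling moves all transcripts by nearly the same amount, so the 3 values of each transcript agree by construction. Their agreement does not test the choice of scaling. The only myeloid marker found, the transcript matched to an element of the PU.1 mRNA, was at 44.8 to 50.7 TMM CPM in WT UUO and 3.42 to 3.47 in WT normal (1 of 9 names searched). Its part in the vimentin and Myc values was not tested.

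Glomerulonephritis in WT kidneys separated the groups for Myc but not for Ctgf or vimentin. Higher values in both libraries were seen in 32.7% of all transcripts here, and 0.0201% passed edgeR. The Myc difference was 2.67 ± 0.71 (log2 ± SE), 6.37-fold, with an edgeR adjusted p of 0.251, and it rested on WT anti-GBM 1: without that library it was 0.70, and without WT anti-GBM 2 it was 3.51 (edgeR adjusted p = 0.00108, with 0.187% of transcripts called). DESeq2 called it (adjusted p = 0.0157), along with 0.669% of transcripts, as did edgeR with library size alone (0.314% called) and with no filter (0.29% called). The Ctgf difference was 0.63 ± 0.47 (edgeR adjusted p = 0.886) and the vimentin difference 0.46 ± 0.49 (edgeR adjusted p = 0.927). Relative to the median of all transcripts, which was at 0.30 with TMM, these were 0.34 and 0.16, and that of Myc was 2.38.

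In KO kidneys the obstructed and normal groups overlapped for all 3 transcripts. The log2 difference of KO UUO against KO normal was -0.06 ± 0.47 for Ctgf, 0.46 ± 0.67 for Myc and 0.42 ± 0.49 for vimentin, with edgeR adjusted p-values of 0.993, 0.934 and 0.919. Their 95% intervals ran from -1.02 to 0.91, from -0.94 to 1.86 and from -0.60 to 1.43. Each of these intervals holds a difference of 1 log2 unit in one direction. Scaled by DESeq2 size factors or by library size alone, the Ctgf difference had a positive sign. The 2 obstructed KO libraries pulled apart: without KO UUO 1 the differences were 0.03 for Ctgf, 0.95 for Myc and 0.97 for vimentin, and without KO UUO 2 they were -0.23, -0.34 and -0.53. Without KO normal 1 and KO normal 2 in turn, Ctgf was at 0.83 and -0.65. Over the 9 broad libraries the 3 differences were -0.02, 0.90 and 0.91, none of them called. edgeR called 0.0121% of transcripts in this comparison.

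Glomerulonephritis in KO kidneys placed both libraries above both controls for all 3 transcripts, which was so for 11.7% of all transcripts tested. edgeR called 0.0524% of transcripts in this comparison and none of the 3. The Ctgf difference was 1.69 ± 0.48 (log2 ± SE), 3.22-fold, with a 95% interval of 0.70 to 2.68 and an edgeR adjusted p of 0.436. Its size moved with single libraries, between 1.11 without KO normal 2 and 2.58 without KO normal 1, and it was 1.27 without KO anti-GBM 1, the library of low breadth. The vimentin difference was 1.34 ± 0.50, 2.54-fold (edgeR adjusted p = 0.542). With KO anti-GBM 2 alone in its group, in the 9 broad libraries, the vimentin difference was 1.77 (edgeR adjusted p = 0.000953), where 1.33% of transcripts were called, but it was 0.70 with KO anti-GBM 2 left out of the 12. The Myc difference was 1.13 ± 0.68, 2.19-fold (edgeR adjusted p = 0.622). The median of all transcripts lay at -0.37 with TMM, and measured from it the Ctgf, vimentin and Myc differences were 2.06, 1.72 and 1.50. Fewer transcripts were listed in KO anti-GBM 1 and 2 (17997 and 25434) than in KO normal 1 and 2 (30365 and 28083). The part of this in the median was not tested. The tubule markers found were the precursors of mir-30b and mir-200b (2 of 10 names searched). They summed to 16.8 to 36.8 TMM CPM in KO anti-GBM and 42.7 to 66.2 in KO normal. Taken singly, the mir-200b precursor overlapped, at 14.69 and 16.54 TMM CPM in KO anti-GBM against 36.34 and 15.44 in KO normal. The mir-30b precursor was at 2.061 (8 reads, KO anti-GBM 1) and 20.28 against 29.85 and 27.24. The part of both precursors in these differences was not tested.

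**Figure D2:**
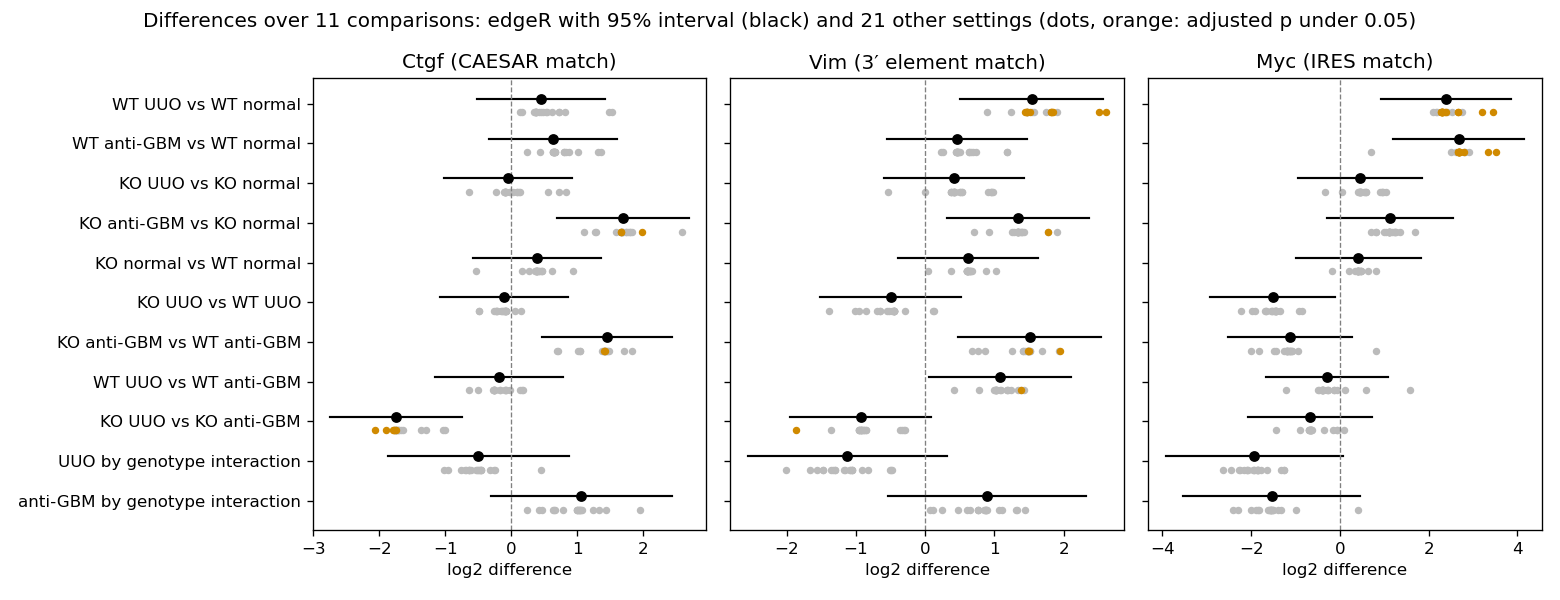
Log2 differences of the 3 transcripts in 11 comparisons, with the edgeR estimate over 12 libraries and its 95% interval in black and 21 other settings as dots, orange where the adjusted p was under 0.05. Orange dots sit mostly on Myc and vimentin in WT UUO, on Myc in WT anti-GBM and on Ctgf in KO UUO against KO anti-GBM, and no black estimate passed.

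Between genotypes, the normal kidneys overlapped for all 3 transcripts. KO normal against WT normal gave 0.39 ± 0.47 for Ctgf, 0.41 ± 0.68 for Myc and 0.62 ± 0.49 for vimentin on the log2 scale, each with an edgeR adjusted p of 1. The 95% intervals reached from -0.58 to 1.36, from -0.999 to 1.82 and from -0.39 to 1.64. edgeR called 0.0161% of transcripts here. Without KO normal 1 the Ctgf difference was -0.54 and that of Myc -0.19.

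In obstructed kidneys the Myc transcript was lower without Smad3 in both libraries, as were 19.4% of all transcripts. The difference of KO UUO against WT UUO was -1.52 ± 0.68 on the log2 scale, with a 95% interval of -2.93 to -0.11 and an edgeR adjusted p of 0.780, in a comparison where 0.00806% of transcripts passed. Its size moved with the KO UUO libraries: it was -0.93 without KO UUO 1, -2.24 without KO UUO 2, -1.36 without WT UUO 1 and -1.54 without WT UUO 2. In the 9 broad libraries, with 1 library a group, it was -0.86. The PU.1 marker was at 13.4 to 16.6 TMM CPM in KO UUO and 44.8 to 50.7 in WT UUO. In KO normal 1 and 2 it was at 0.609 and 16.35 TMM CPM, so KO UUO and KO normal overlapped. The 2 tubule precursors summed to 49.7 to 58.0 TMM CPM in KO UUO and 70.9 to 74.0 in WT UUO. Taken singly, the mir-200b precursor overlapped, at 52.27 and 30.62 TMM CPM in KO UUO against 48.42 and 42.23 in WT UUO. The mir-30b precursor was at 5.748 (KO UUO 1, of low breadth) and 19.07 against 25.62 and 28.63. The part of these markers in the Myc difference was not tested. Ctgf and vimentin overlapped between the genotypes, with differences of -0.12 ± 0.47 and -0.50 ± 0.49 (edgeR adjusted p = 0.999 and 0.982). Both signs turned with 1 library left out: vimentin was at 0.11 without WT UUO 2 and 0.13 without KO UUO 1, against -1.39 without KO UUO 2, and Ctgf was at 0.14 and 0.05 without WT UUO 2 and KO UUO 1. Relative to the median of all transcripts at -0.16, the Ctgf value became 0.04 and that of Myc -1.36.

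In nephritic kidneys Ctgf and vimentin were higher without Smad3 in both libraries, as were 13.4% of all transcripts. The Ctgf difference of KO anti-GBM against WT anti-GBM was 1.45 ± 0.48 on the log2 scale, 2.72-fold, and that of vimentin 1.51 ± 0.50, 2.85-fold, each with an edgeR adjusted p of 0.244, while 0.0201% of transcripts passed. Myc lay on the other side, at -1.13 ± 0.67 with overlapping groups (edgeR adjusted p = 0.426), and turned to 0.82 without WT anti-GBM 1. Among the 9 broad libraries the vimentin difference was 1.94 (edgeR adjusted p = 5.59e-05), with 7.44% of transcripts called, and the Ctgf difference was 1.03 (adjusted p = 0.122). Without KO anti-GBM 1 and with all other libraries, Ctgf differed by 1.01 and vimentin by 1.93, and without KO anti-GBM 2 they differed by 1.71 and 0.86. KO anti-GBM 1 and 2 listed 17997 and 25434 transcripts, against 34482 and 35718 in WT anti-GBM 1 and 2. The transcript ncRNA_aligned_7824 held 36.35% of the reads in KO anti-GBM 1 and 5.99% in KO anti-GBM 2. The part of these features in the median of all transcripts was not tested. That median was shifted by -0.62, -0.72 and -1.37 under TMM, DESeq2 size factors and library size alone. Measured from it, Ctgf was at 2.06, 2.13 and 2.08 and vimentin at 2.12, 2.13 and 2.13. The 3 scalings again agree here by construction. Of 8 other tested transcripts matched to elements of mRNAs (described below), 5 were positive in this comparison. With TMM their median of 0.29 also lay above that of all transcripts. The 2 tubule precursors summed to 16.8 to 36.8 TMM CPM in KO anti-GBM and to 72.9 to 86.3 in WT anti-GBM. Their part in these differences was not tested. No marker of mesenchyme, endothelium or podocytes was found, out of 7, 3 and 3 names searched. The 2 precursors were not tested as markers of kidney, so the kidney label was not checked here.

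Whether the response to injury itself depended on Smad3 was tested as an interaction, and no transcript of the 3 passed. For obstruction, the KO response minus the WT response was -0.50 ± 0.66 for Ctgf, -1.93 ± 0.96 for Myc and -1.12 ± 0.69 for vimentin on the log2 scale, with edgeR adjusted p-values of 1.00, 0.898 and 0.988, and 0.0604% of transcripts were called. For Myc the 95% interval ran from -3.92 to 0.06 (unadjusted p = 0.0568). For glomerulonephritis it was 1.06 ± 0.66 for Ctgf, -1.54 ± 0.95 for Myc and 0.89 ± 0.69 for vimentin (edgeR adjusted p = 0.580, 0.578 and 0.663), and 0.0161% of transcripts were called. The median of all transcripts lay at -0.25 and -0.71 in these 2 tests. That of the 8 other tested transcripts matched to elements of mRNAs lay at -0.09 and 0.94, with 4 and 7 of them positive. Signs moved with single libraries: the Myc value for glomerulonephritis was 0.41 without WT anti-GBM 1, and the Ctgf value for obstruction was 0.45 without KO normal 1. Over the 9 broad libraries the obstruction values were -0.54 for Ctgf, -1.26 for Myc and -0.92 for vimentin, and those for glomerulonephritis 0.65, -1.85 and 1.32. The vimentin value for obstruction was -0.47 without KO UUO 1 and -2.003 without KO UUO 2.

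The injuries set against each other gave 2 separations. In WT kidneys vimentin was higher in UUO than in anti-GBM in both libraries, as were 20% of all transcripts, by 1.08 ± 0.49 on the log2 scale (edgeR adjusted p = 0.841, with 0.0967% of transcripts called). Over the 9 broad libraries, with WT UUO 2 alone in its group, this difference was 1.38 (edgeR adjusted p = 0.016), with 1.67% called, but it was 0.42 with WT UUO 2 left out of the 12. In KO kidneys Ctgf was lower in UUO than in anti-GBM in both libraries, as were 11.4% of all transcripts. Its difference was -1.74 ± 0.48, with a 95% interval of -2.74 to -0.75 and an edgeR adjusted p of 0.171 (0.0242% called), and it was -1.30 over the 9 broad libraries (adjusted p = 0.164). It passed with no filter in edgeR, which called 0.514% of transcripts. Myc overlapped between the injuries in both genotypes, at -0.29 ± 0.66 in WT and -0.67 ± 0.67 in KO. The WT value was 1.58 without WT anti-GBM 1 and 0.11 with library size alone, and the KO value was 0.09 over the 9 broad libraries. With library size alone Ctgf also turned sign in WT, at 0.17.

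Reads covered most of each transcript, not only a short element. The covered share, a percent the authors deposited, ran from 84.3% (KO UUO 1) to 97.5% (WT UUO 2) for Ctgf and from 86.5% (WT UUO 1) to 96.1% (KO anti-GBM 2) for vimentin. For the Ctgf transcript this left between 59 and 370 bases without a read. The Myc transcript was covered least in KO UUO 1, where 156 reads covered 43.8% of its length, against 99.9% for as many reads placed at random. KO anti-GBM 1 covered 62.2% of it with 197 reads, while KO anti-GBM 2 covered 92.5% with 169. In WT anti-GBM 1, with 1322 reads, 99.4% was covered. Broad libraries with few Myc reads also covered less of it: WT normal 2 covered 62.9% with 57 reads, and KO normal 2 covered 69.5% with 56. WT UUO 1, of low breadth, covered 84.0% with 554 reads.

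**Figure D3:**
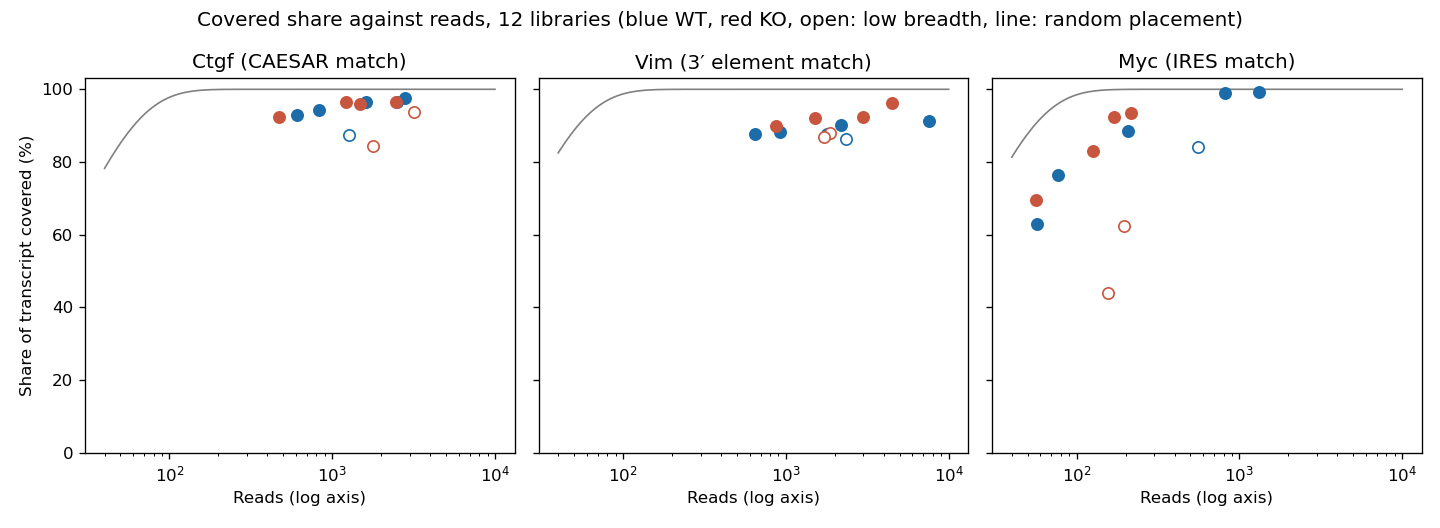
Share of each transcript covered by reads (percent) against its number of reads (log axis) in the 12 libraries, with WT in blue, KO in red, libraries of low breadth as open points and the share for randomly placed reads as a line. Ctgf and vimentin stay above 84% in every library, and Myc falls to 43.8% in KO UUO 1 and 62.2% in KO anti-GBM 1.

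The 3 transcripts followed each other loosely. Over the 12 libraries, which share the groups and their scaling, the log2 CPM of Ctgf correlated with that of Myc at r = 0.474 and with that of vimentin at 0.440, and Myc with vimentin at 0.438. Among 3609 matched transcripts with a mean of 10 CPM or more, those most like Ctgf were ncRNA_aligned_625 (r = 0.891), ncRNA_aligned_3011 (0.885) and ncRNA_aligned_2008 (0.882), each matched to a cDNA described as noncoding. Most like Myc were ncRNA_aligned_5650 (r = 0.889), matched to such a cDNA, ncRNA_aligned_5006 (0.888), in a conserved structure predicted by EvoFold, and ncRNA_aligned_3322 (0.883), in one predicted by RNAz. Most like vimentin were ncRNA_aligned_4579 (r = 0.862), ncRNA_aligned_7726 (0.844) and ncRNA_aligned_1773 (0.808). In the 9 broad libraries the leading match of Myc stood at r = 0.969, that of vimentin at 0.926 and that of Ctgf at 0.863.

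The tables hold 9 further transcripts matched to elements of mRNAs, of which 8 were tested. In WT UUO, 1 of the 8 was called higher and 0 lower by edgeR, and their median log2 difference was -0.15 against 0.49 for all transcripts. The call was the PU.1 element, from the mRNA of a transcription factor of myeloid cells, at 3.79 ± 0.90 (edgeR adjusted p = 0.025). None of the 8 was called in the other 10 comparisons. The transcript matched to the ribosome entry site of c-sis (Pdgfb), the B chain of platelet-derived growth factor and a mitogen of mesenchymal cells, was at 58.9 ± 2.31 TMM CPM in WT normal and 193 ± 104 in WT UUO (log2 1.71 ± 0.57, edgeR adjusted p = 0.124). That of Bag-1, a co-chaperone that limits cell death, was at 765 ± 19.2 and 229 ± 62.1 TMM CPM (-1.74 ± 0.57, edgeR adjusted p = 0.134). That of Mnt, a repressor that competes with Myc for its partner Max, was at 38.6 ± 3.42 and 48.5 ± 27.3 TMM CPM (0.33 ± 0.50, edgeR adjusted p = 0.792). In KO anti-GBM against KO normal the median of the 8 was 0.43, with -0.37 for all transcripts.

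**Figure D4:**
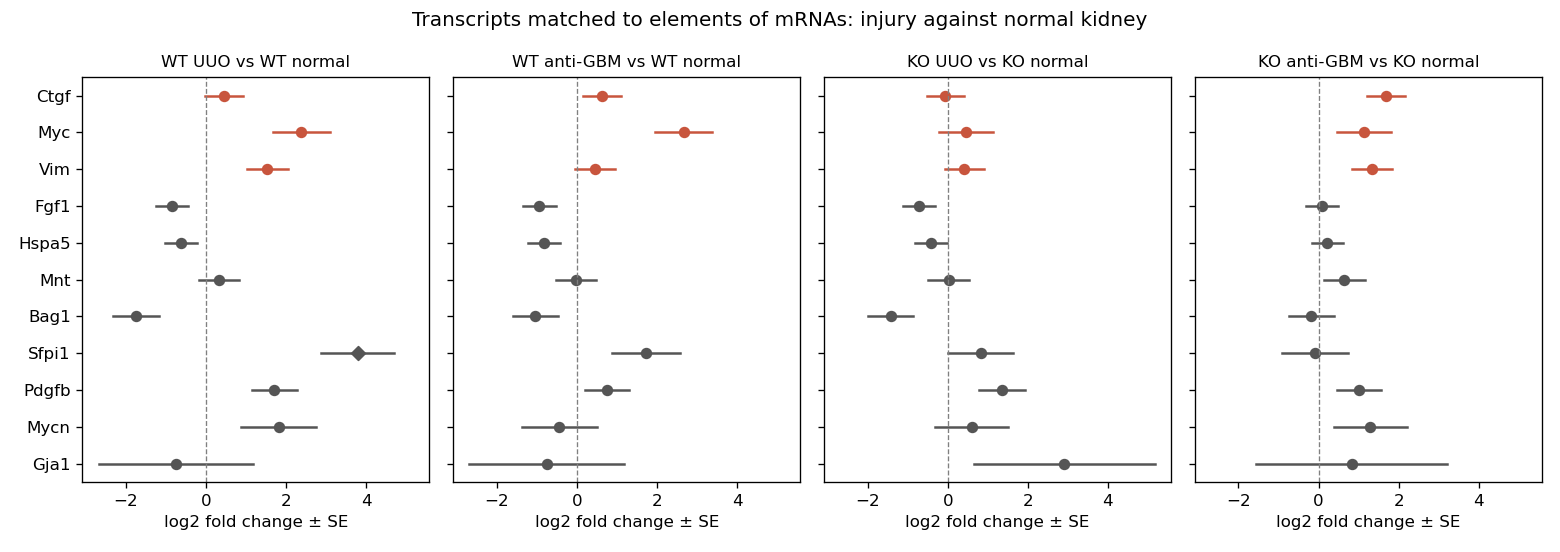
Log2 fold change ± SE (edgeR, 12 libraries) of injured against normal kidney for the 11 tested transcripts matched to mRNA elements, labelled by gene, with Ctgf, Myc and vimentin in red, the others in grey and a diamond where the adjusted p was under 0.05. The only diamond is the PU.1 transcript (Sfpi1) in WT UUO, at 3.79.

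Of 48 names of TGF-β and fibrosis genes and regulatory RNAs searched in the tables, 5 transcripts were found: H19, Neat1 with 2 transcripts, and the precursors of let-7c-2 and mir-200b. None was called by edgeR in any of the 11 comparisons. For KO UUO against WT UUO, 0 of the 5 had a positive log2 difference and their median was -0.64, against -0.16 for all transcripts. That median was the value of H19, with 16 and 0 reads in KO UUO 1 and 2 and 10 and 15 in WT UUO 1 and 2. The Neat1 transcript ncRNA_aligned_3988 had 0 reads in these libraries except for 14 in WT UUO 2. The other Neat1 transcript differed by -0.72 ± 0.72, and the let-7c-2 and mir-200b precursors by -0.10 ± 0.58 and -0.13 ± 0.53. In WT UUO against WT normal 4 of the 5 had a positive log2 difference and their median was 1.00, against 0.49 for all transcripts. That median was the value of the let-7c-2 precursor, whose groups overlapped. It was at 93.26 and 34.42 TMM CPM in WT UUO 1 and 2 against 35.92 and 27.97 in WT normal. H19, an imprinted noncoding RNA, had 0 reads in both normal groups and 25 reads over the WT UUO libraries, at least 4.26-fold higher against a floor of 3 counts over the WT normal group, and the median was the same with H19 at that bound.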

How the data were processed

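The authors deposited 1 table per library with, per the file headers, the uniquely mapped read count, the length, the covered share (percent), the RPKM and the mean coverage depth of each transcript. RPKM was recomputed from the deposited counts and totals within a relative deviation of 1.75e-14. Bowtie 0.12.7 and mm9 are named in the submitters' processing notes; how transcripts were built, and any strand setting, is not given in the sources used here, so overlapping and antisense reads cannot be told apart. Transcripts absent from a table were taken as 0. The median read length from the deposited coverage signal was 90 bases. Counts were tested with edgeR 4.0.16 (R 4.3.3): TMM, filterByExpr by group (24816 of 42452 kept), 1 mean per group, robust quasi-likelihood F tests and Benjamini-Hochberg adjustment over all kept transcripts. DESeq2 1.42.0 and limma 3.58.1 were alternatives. Group SDs are over 2 libraries. Breadth used transcripts over 500 bases with 20 to 200 reads. Fits were tested on simulated data. The transcripts named as most alike are the 3 of highest Pearson r of log2 CPM (prior count 2). mRNA lengths come from GENCODE on NCBIM37. Members, lists and tests were chosen with earlier results of these data known. The floor of 3 counts covers counting error only.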

Additional observations from a re-analysis of the deposited data

How the results depend on the processing

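Of 693 results under other settings, 612 kept their direction and stayed short of the threshold, 55 passed it and 26 turned direction, none of these past it. Adjusted p-values follow. Myc in WT UUO passed with DESeq2 size factors (0.0354), library size alone (0.00253), no filter (0.00818), only the groups compared (0.0374), DESeq2 (0.00813) and limma on RPKM (0.0222); vimentin there passed with the same settings except only the groups compared (0.0319, 0.000598, 0.0405, 0.0238 and 0.0166) and in the 9 broad libraries (6.33e-05). Myc in WT anti-GBM passed with library size alone (0.0219), no filter (0.00635) and DESeq2 (0.0157), and Ctgf in KO UUO against KO anti-GBM with no filter (0.0429). In the 9 libraries vimentin passed in KO anti-GBM against KO normal (0.000953) and WT anti-GBM (5.59e-05), and in WT UUO against WT anti-GBM (0.016). Direction turned for Ctgf in KO UUO against KO normal with DESeq2 size factors (0.984), library size alone (0.685), 10 or more reads in 6 libraries (0.956), only the groups compared (0.981), DESeq2 (0.976) and limma (0.645), for WT UUO against WT anti-GBM with library size alone (Ctgf 1, Myc 1) and limma (Ctgf 0.920, Myc 0.762), and for Myc in KO UUO against KO anti-GBM in the 9 libraries (1).

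Without 1 library each, the adjusted p of Myc ranged from 0.00109 to 0.358 in WT UUO and from 0.000446 to 1 in WT anti-GBM, passing in 9 of 12 fits each; it did not pass without WT normal 1, WT normal 2 or, respectively, WT UUO 1 and WT anti-GBM 1. Vimentin in WT UUO ranged from 0.0102 to 0.720 and passed in 5 of 12, without WT UUO 1 (0.0328), WT anti-GBM 1 (0.048), KO UUO 1 (0.0108), KO UUO 2 (0.0102) or KO anti-GBM 2 (0.0298). Ctgf ranged from 0.0182 to 1 in KO anti-GBM against KO normal, passing without KO UUO 1, KO UUO 2 or KO anti-GBM 2. Against WT anti-GBM, Ctgf (0.0436 to 0.862) and vimentin (0.0227 to 0.845) passed without KO UUO 1 or KO UUO 2. In KO UUO against KO anti-GBM, Ctgf (0.0209 to 0.451) passed in 5 of 12, without WT UUO 1, WT UUO 2, WT anti-GBM 1, KO UUO 2 or KO anti-GBM 2, and vimentin (0.0269 to 0.819) without KO UUO 2. In the fits that called a member, the share of all transcripts called was 1.42% to 6% in WT UUO, 0.187% to 0.943% in WT anti-GBM, 0.554% to 1.49% in KO anti-GBM against KO normal, 1.5% to 1.74% against WT anti-GBM and 0.577% to 2.95% in KO UUO against KO anti-GBM; with 1 group of 1 library, the filter kept 32560 to 35966 transcripts in these fits. Direction turned without 1 library, short of the threshold, in KO UUO against KO normal (Ctgf 0.817 to 1, Myc 0.777 to 1, vimentin 0.510 to 1), KO normal against WT normal (Ctgf and Myc 1 to 1), KO UUO against WT UUO (Ctgf 0.809 to 1, vimentin 0.165 to 1), KO anti-GBM against WT anti-GBM (Myc 0.224 to 0.792), WT UUO against WT anti-GBM (Ctgf 0.675 to 1, Myc 0.848 to 1), and the interactions (Ctgf for UUO 0.691 to 1, Myc for anti-GBM 0.364 to 1.00). The cause was not tested. The planned sum of several vimentin transcripts could not be formed, as 1 was found. No paired analysis was possible because the labels number no replicates and name no shared animal, litter or batch; 1 and 2 follow accession order within a group and pair nothing. With 2 libraries a group and Myc at 56 to 1322 reads, the wide intervals limit what can be told apart.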

Other observations

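Besides the Myc transcript, 4 transcripts carry the Rfam model of the c-myc ribosome entry site without a match to the gene, and 3 of them were tested. None was called by edgeR in the 11 comparisons. The most abundant, ncRNA_aligned_3333, lies in a conserved structure predicted by EvoFold and stood at 28.1 ± 5.61 TMM CPM in WT normal, 26.2 ± 8.22 in WT UUO, 21.6 ± 1.04 in nephritic WT and 41.3 ± 1.29 in KO normal kidneys (SD, n = 2). In WT UUO, where the Myc transcript differed by 2.39 on the log2 scale, ncRNA_aligned_3333 differed by -0.10 ± 0.55 (edgeR adjusted p = 0.948). The predicted transcript ncRNA_predict_458 was at 0.967 ± 0.447 TMM CPM in WT normal and 4.82 ± 1.83 in WT UUO (2.29 ± 1.17, edgeR adjusted p = 0.345).

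The transcript matched to the ribosome entry site of n-myc (Mycn), a close relative of c-Myc, was at 2.36 ± 0.89 TMM CPM in WT normal, 8.44 ± 8.50 in WT UUO and 9.80 ± 1.46 in KO anti-GBM, with no call in any comparison.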
